A study of Sus scrofa with 6 samples.

Results

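The ubiquitin ligases and FOXO factors of muscle atrophy were described here as 10 genes, taken from the deposited files by their Ensembl symbols on the pig build Sscrofa11.1. These were the ligase genes FBXO32, TRIM63, TRIM54, FBXO30 and FBXO40, the transcription factor genes FOXO1, FOXO3, FOXO4 and KLF15, and CDC34, which encodes a ubiquitin-conjugating enzyme. The 10 genes were chosen with earlier results of these data known, so a gene that stands out among them does so partly by that choice. All 10 were found among the 25973 genes with mRNA transcripts in the files, and all 10 were among the 19672 genes tested. The study compared longissimus thoracis (LT), a muscle of the back, with semitendinosus (ST), a muscle of the hind leg, in 3 Min pigs, a local Chinese breed. The pigs were labelled WT and were of the same age, and neither the labels nor the methods name a treatment. LT and ST were taken from the same 3 pigs, the sample titles share the numbers 1 to 3, which were read as the pigs, and each of the 6 libraries was made from total RNA after removal of rRNA with a kit that keeps the strand. Expression was given as FPKM, the fragments of a transcript scaled by its length and by the fragments of its library.

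Ubiquitin ligases attach ubiquitin to proteins and so mark them for the proteasome. In muscle, Atrogin-1, encoded by FBXO32, and MuRF1, encoded by TRIM63, are the best known ligases of fasting, disuse and denervation, and both rise in many forms of wasting. FOXO factors switch on these genes when insulin and AKT signaling is low, and KLF15 acts beside them in the response to glucocorticoids.

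Muscle fibre markers were high in every library, with a summed FPKM of 19151 to 24938 in LT and 10510 to 18080 in ST over the 6 of 9 that were tested. By sign 3 of the 6 were higher and 3 lower in ST, with a median log2 difference of -0.02. The sum includes TNNC2, at means of 8270 FPKM in LT and 2702 in ST. It also includes TNNT3, at 7101 and 1908, which is among the fast fibre markers below too. The ST library of pig 2 stood apart from the other ST libraries. Of 7 markers of slow fibres, 6 were tested, none was listed at 0 in all libraries, and their summed FPKM was 4457 to 6802 in LT and 5987 to 37224 in ST. Of 7 markers of fast fibres, 3 were tested, none was at 0 in all libraries, and their sum was 13765 to 17842 in LT and 676 to 12041 in ST. ATP2A1, the calcium pump of fast fibres, was listed at 1267, 1446 and 1054 FPKM in LT of pigs 1, 2 and 3 and at 196, 1499 and 56.7 FPKM in ST. The ST library of pig 2 was thus above all LT libraries for this gene, and the other ST libraries were below them. Mitochondrial transcripts took 2.91 to 4.25% of the fragments in LT and 6.15 to 8.48% in ST. The depth, estimated from the lowest FPKM values, was 38400000 to 51800000 fragments per library. These estimates were below the mean number of clean read pairs that the study reported for either muscle. The lowest estimate for a gene described here was 552 fragments, for KLF15, where counting alone would give an error of 4.26%, and such errors cover counting only.

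Against this background, 113 of 19672 genes (0.574%) passed an adjusted p under 0.05 and a log2 fold change above 1 in limma, 81 higher (0.412%) and 32 lower (0.163%) in ST. With the pig as a block, 799 genes (4.06%) passed. None of the 10 genes passed without the block, and 1 of 10, CDC34, passed with it. At an unadjusted p under 0.05 stood 1 of 10 genes, against 18.8% of all genes. With the block 3 of 10 did, FBXO32, TRIM54 and CDC34, against 24.7% of all genes. In 1 of 10, CDC34, the libraries of the muscles did not overlap, which held for 24.7% of all genes. By sign, 7 of 10 were higher in ST and 3 were lower. The median log2 difference was 0.26 over the 10 genes and 0.13 over all genes tested, and 6 of 10 lay above the latter. In 5 of 10 genes the direction was the same in all 3 pigs, as it was in 47.6% of all genes. Whether fewer fibres of a kind or less RNA per fibre lies behind a difference between these muscles cannot be told apart in whole tissue.

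**Figure D1:**
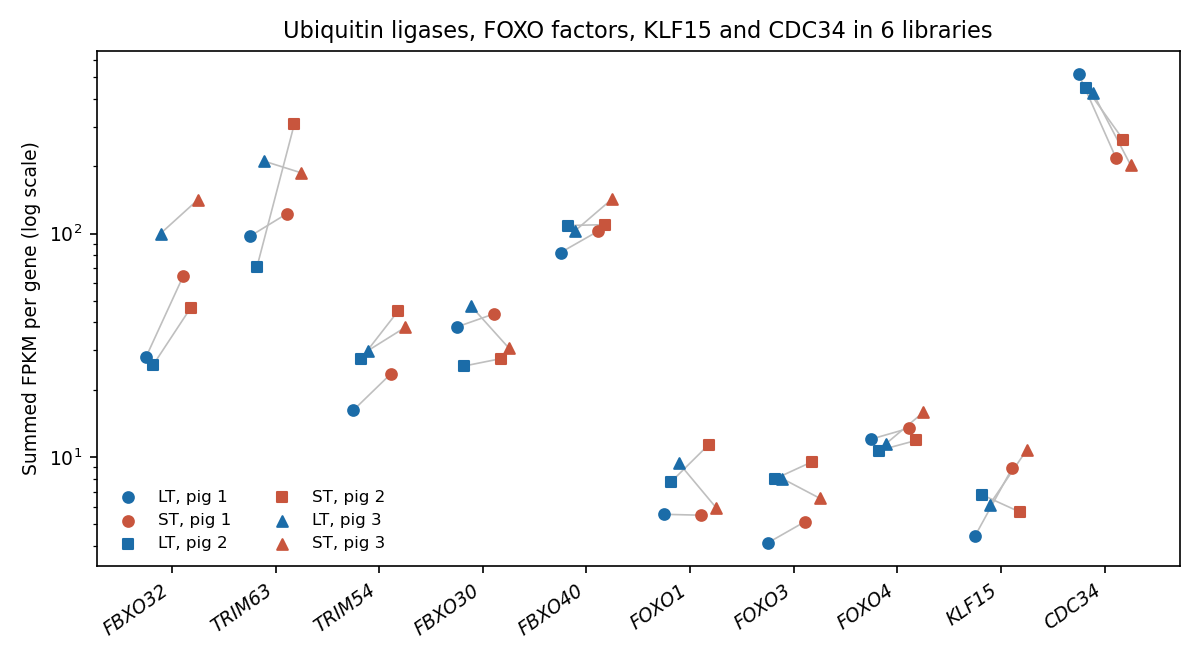
Summed FPKM of each gene (vertical axis, log scale) in the 6 libraries. Blue points are LT, red points are ST, the shape gives the pig and grey lines join the muscles of a pig. CDC34 is the only gene of the 10 with all LT points above all ST points.

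FBXO32, on chr4:15895351-15930940 of the plus strand, encodes the F-box protein that brings its targets to an SCF ligase. Its summed FPKM was 28.0, 25.9 and 100 in the LT libraries of pigs 1, 2 and 3, and 64.7, 46.4 and 142 in the ST libraries. Pig 3 had the highest value in each muscle, ST was above LT within each pig, and the ranges of the muscles overlapped. The log2 difference, ST minus LT on log2(FPKM + 0.1), was 0.85 (SE 0.58, 95% interval -0.49 to 2.18, limma adjusted p = 0.470). On leaving out 1 library it ran from 0.39 without ST of pig 3 (limma adjusted p = 0.799) to 1.48 without LT of pig 3 (0.199). Within pigs 1, 2 and 3 it was 1.20, 0.84 and 0.50. With the pig as a block the standard error fell to 0.19 and the interval was 0.40 to 1.30, but the limma adjusted p was 0.0524. The spread between pigs was wide. The coefficient of variation was 82.3% in LT, higher than that of 98.9% of the 11097 genes with a mean FPKM of at least 1, whose median was 17.4%. In ST it was 60.0%, higher than that of 94.2% of the genes.

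TRIM63 lies on chr6:83492633-83507499 of the minus strand and encodes the ligase that tags thick filament proteins. Its FPKM was 97.0, 70.8 and 211 in the LT libraries and 123, 308 and 187 in the ST libraries, all from a single transcript. The highest LT library was that of pig 3 and the highest ST library that of pig 2, so the ranges overlapped. ST was above LT in pigs 1 and 2, by 0.34 and 2.12 on the log2 scale, and in pig 3 the difference was -0.17. The limma difference was 0.76 (SE 0.46, 95% interval -0.30 to 1.82, adjusted p = 0.412). On leaving out 1 library it ran from 0.42 without ST of pig 2 (limma adjusted p = 0.614) to 1.21 without LT of pig 3 (0.222). The coefficient of variation, 59.0% in LT, was higher than that of 96.7% of the genes. TRIM63 and FBXO32 did not keep a fixed ratio. TRIM63 was above FBXO32 in 6 of 6 libraries, by 1.32 times in ST of pig 3 and by 6.63 times in ST of pig 2.

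TRIM54 encodes MuRF3, a relative of MuRF1 that binds microtubules and the sarcomere. Its gene range in the files, chr3:111834151-111852745 on the minus strand, also reaches the neighbouring gene UCN of RefSeq. The summed FPKM was 16.2, 27.3 and 29.9 in the LT libraries and 23.5, 44.8 and 38.0 in the ST libraries. Pig 1 was lowest in each muscle, ST was above LT in 3 of 3 pigs, and the muscles overlapped through ST of pig 1. The log2 difference was 0.53 (SE 0.31, 95% interval -0.19 to 1.26, limma adjusted p = 0.403). With the pig as a block the interval was 0.16 to 0.91 and the limma adjusted p was 0.101. A minor transcript of 7 exons, ENSSSCT00000040899, was at 0.108, 0.401 and 0.391 FPKM in LT and at 0.936, 2.95 and 0.736 in ST. These values did not overlap. The log2 difference of this transcript was 1.90 (limma unadjusted p = 0.0197, adjusted p = 0.433 over 52102 transcripts), and it made up 0.665 to 6.58% of the sum of the gene.

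FBXO40 encodes an F-box protein of muscle known for targeting IRS1, the adaptor of the insulin receptor. The gene is on chr13:138881513-138905356, minus strand, and its end overlaps that of HCLS1 in RefSeq. FPKM was 82.2, 109 and 103 in the LT libraries and 102, 110 and 143 in the ST libraries. The muscles overlapped, although ST was above LT in each pig, by 0.31, 0.01 and 0.48 on the log2 scale. The limma difference was 0.27 (SE 0.21, 95% interval -0.22 to 0.76, adjusted p = 0.540). FBXO40 varied less between pigs than the other ligases, with coefficients of variation of 14.2% in LT and 18.4% in ST.

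FBXO30 encodes a ligase that acts in muscle loss after denervation. Its gene ID in the files spans chr1:19755720-20024398 on the plus strand and holds transcripts of the RefSeq gene EPM2A as well as of FBXO30. The sum over the gene ID was 38.2, 25.5 and 47.2 FPKM in the LT libraries and 43.7, 27.6 and 30.8 in the ST libraries. Transcripts inside the EPM2A range made up 51.1 to 80.1% of it. Transcripts inside the RefSeq range of FBXO30, 19756232 to 19777621, reached 7.59, 6.46 and 16.7 FPKM in the LT libraries and 13.4, 5.63 and 9.53 in the ST libraries. Neither set separated the muscles. The log2 difference was -0.10 for the gene ID (SE 0.28, 95% interval -0.74 to 0.53, limma adjusted p = 0.878) and -0.06 for the FBXO30 range alone (limma adjusted p = 0.953), an alternative chosen after seeing the data.

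**Figure D2:**
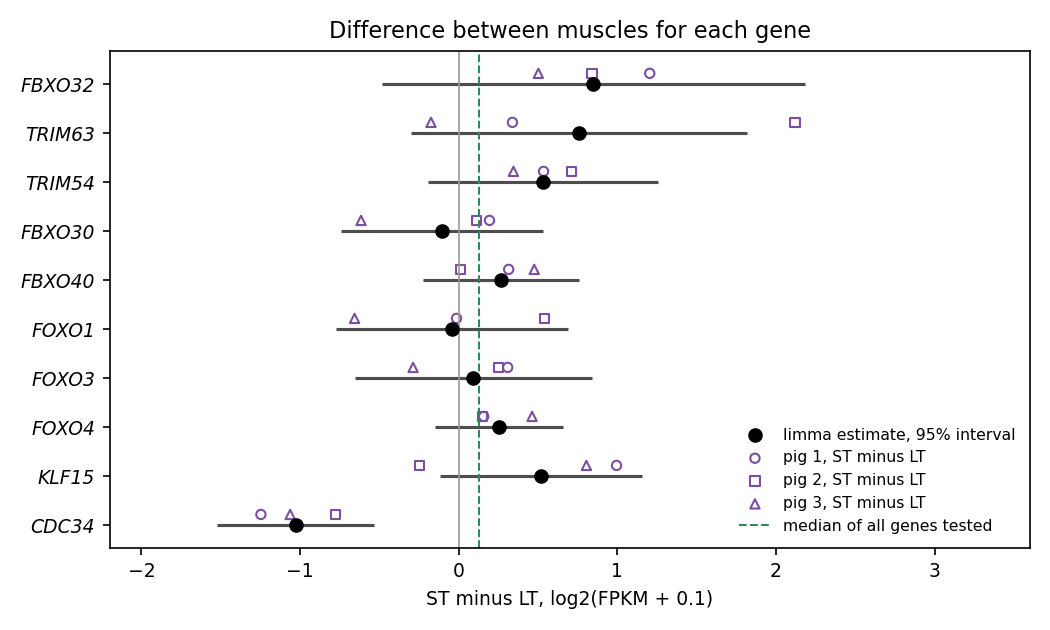
ST minus LT on log2(FPKM + 0.1) for each gene. Black points are limma estimates with 95% intervals, open symbols are the difference within each pig, and the dashed line is the median of all genes tested. The interval of CDC34 lies wholly below 0, and those of the other 9 genes include 0.

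FOXO1, FOXO3 and FOXO4 are kept out of the nucleus by AKT and enter it when insulin signaling is low, so their RNA level need not follow their activity. FOXO1, on chr11:15317124-15410473, was at 5.54, 7.76 and 9.41 FPKM in LT and at 5.48, 11.4 and 5.94 in ST. The highest and the lowest library were both from ST, and the muscles overlapped. The log2 difference was -0.04 (SE 0.32, 95% interval -0.78 to 0.69, limma adjusted p = 0.958), and it was 0.036 after rescaling to nuclear mRNA.

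FOXO3, on chr1:74628217-74760328, is the member of the family that drives autophagy as well as FBXO32 in muscle. FPKM was 4.13, 7.98 and 8.0 in the LT libraries and 5.14, 9.53 and 6.54 in the ST libraries. Pig 1 was lowest in each muscle. The log2 difference was 0.09 (SE 0.32, 95% interval -0.66 to 0.84, limma adjusted p = 0.912), and it was -0.091 after quantile normalization. The ratio of FOXO1 to FOXO3 stayed between 0.908 and 1.34 in the 6 libraries.

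FOXO4, on chrX:57132548-57140650, was the steadiest of the 4 transcription factor genes. It was at 12.0, 10.7 and 11.5 FPKM in LT and at 13.4, 11.9 and 15.8 in ST. ST was above LT in 3 of 3 pigs, and only ST of pig 2 fell within the range of LT. The log2 difference was 0.26 (SE 0.17, 95% interval -0.15 to 0.66, limma adjusted p = 0.470). In LT the coefficient of variation was 5.93%, lower than in most genes, since only 8.37% of genes had a lower value.

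KLF15, on chr7:53877813-53890546, encodes a target of the glucocorticoid receptor that raises the breakdown of branched-chain amino acids. The summed FPKM was 4.43, 6.76 and 6.12 in the LT libraries and 8.94, 5.68 and 10.8 in the ST libraries. The ST libraries of pigs 1 and 3 were above all LT libraries, and that of pig 2 was not. The log2 difference was 0.52 (SE 0.28, 95% interval -0.12 to 1.15, limma adjusted p = 0.357). On leaving out 1 library it ran from 0.32 without ST of pig 3 (limma adjusted p = 0.664) to 0.78 without ST of pig 2 (0.103). The transcript ENSSSCT00000085657 was at 0.0907, 0.0648 and 0.109 FPKM in LT and at 0.611, 0.123 and 3.91 in ST. It made up 36.3% of the gene in ST of pig 3, and its log2 difference of 2.20 had a limma adjusted p of 0.537.

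CDC34 encodes the ubiquitin-conjugating enzyme that hands ubiquitin to SCF ligases, the kind of complex that FBXO32, FBXO30 and FBXO40 join. The gene lies on chr2:77761590-77768396, minus strand, and the files list a single transcript of 6 exons and 1488 bp. CDC34 was also measured by qPCR in the study. The primers are shown because CDC34 was the gene described here whose libraries separated by muscle.
CDC34 forward primer: cattgactacccttactcccc
CDC34 reverse primer: gatggtcctgacattctgg
FPKM was 517, 450 and 424 in the LT libraries and 218, 263 and 203 in the ST libraries. Every LT library was above every ST library, and the mean was 463 ± 47.9 FPKM in LT (SD, n = 3) and 228 ± 31.2 in ST (SD, n = 3), so that LT was 2.03 times ST. Of all genes, 8.08% had LT above ST without overlap. Within pigs 1, 2 and 3 the log2 difference was -1.25, -0.78 and -1.06. The limma difference was -1.03 (SE 0.22, 95% interval -1.52 to -0.53), with an adjusted p of 0.0717, above the threshold. With the pig as a block the limma adjusted p was 0.0411. Without the ST library of pig 2 the log2 difference was -1.14 (limma adjusted p = 0.0215), so that leaving out this library changed the call. Among all genes, leaving out this library raised the number called from 113 to 991, so the change was not particular to CDC34. Over all 17 alternatives the limma adjusted p was 0.0215 to 0.235. The 2-sided exact permutation p was 0.1, the smallest that 3 against 3 libraries can give. The fibre markers and the mitochondrial share given above also differed between the muscles, and their part in the CDC34 difference was not tested.

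Across genes, FPKM is scaled by length, so levels can be set side by side. FBXO30 is placed by the sum of its gene ID, most of which came from transcripts in the EPM2A range. In LT the order by mean FPKM was CDC34 (463), TRIM63 (126), FBXO40 (97.9), FBXO32 (51.3), the FBXO30 gene ID (37.0), TRIM54 (24.5), FOXO4 (11.4), FOXO1 (7.57), FOXO3 (6.70) and KLF15 (5.77). The ranges of neighbours in this order overlapped except between CDC34 and TRIM63, between TRIM54 and FOXO4 and between FOXO4 and FOXO1. In ST, CDC34 (228) and TRIM63 (206) overlapped, TRIM54 (35.4) stood above the FBXO30 gene ID (34.0) within overlapping ranges, and KLF15 (8.46) stood above FOXO1 (7.59) and FOXO3 (7.07), also within overlapping ranges. Transcripts inside the FBXO30 range alone had a mean of 10.2 FPKM in LT and 9.53 in ST, below the means of TRIM54 and FOXO4, and in ST all 3 libraries were below those of TRIM54. The ratio of CDC34 to TRIM63 was 5.32, 6.36 and 2.01 in the LT libraries and 1.77, 0.853 and 1.09 in the ST libraries. CDC34 had a higher mean than 99.3% of all genes tested, TRIM63 than 98.7%, FBXO32 than 97.2% and FOXO3 than 76.7%.

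The split of a gene into its transcripts differed between libraries. The files list 25 transcripts of the 10 genes, of which 21 were tested and 2 were at 0 in every library. None was called, against 76 of 52102 transcripts (0.146%). At an unadjusted limma p under 0.05 stood 2, the single transcript of CDC34 and the minor one of TRIM54, against 9.69% of all transcripts. Both shares are over mRNA and lncRNA transcripts together, whereas the 25 are mRNA transcripts. For FBXO32 the long transcript ENSSSCT00000044541, of 6730 bp and 10 exons, was at 17.7, 21.7 and 68.9 FPKM in LT and at 59.8, 23.7 and 124 in ST. It held 51.0% of the gene in ST of pig 2 and 92.4% in ST of pig 1. The shorter ENSSSCT00000006564, of 1432 bp and 9 exons, was at 9.02, 4.17 and 25.5 FPKM in LT and at 3.07, 18.4 and 17.0 in ST. Neither transcript separated the muscles, with limma adjusted p of 0.724 and 0.999. FPKM of overlapping transcripts are estimates of how shared fragments divide.

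**Figure D3:**
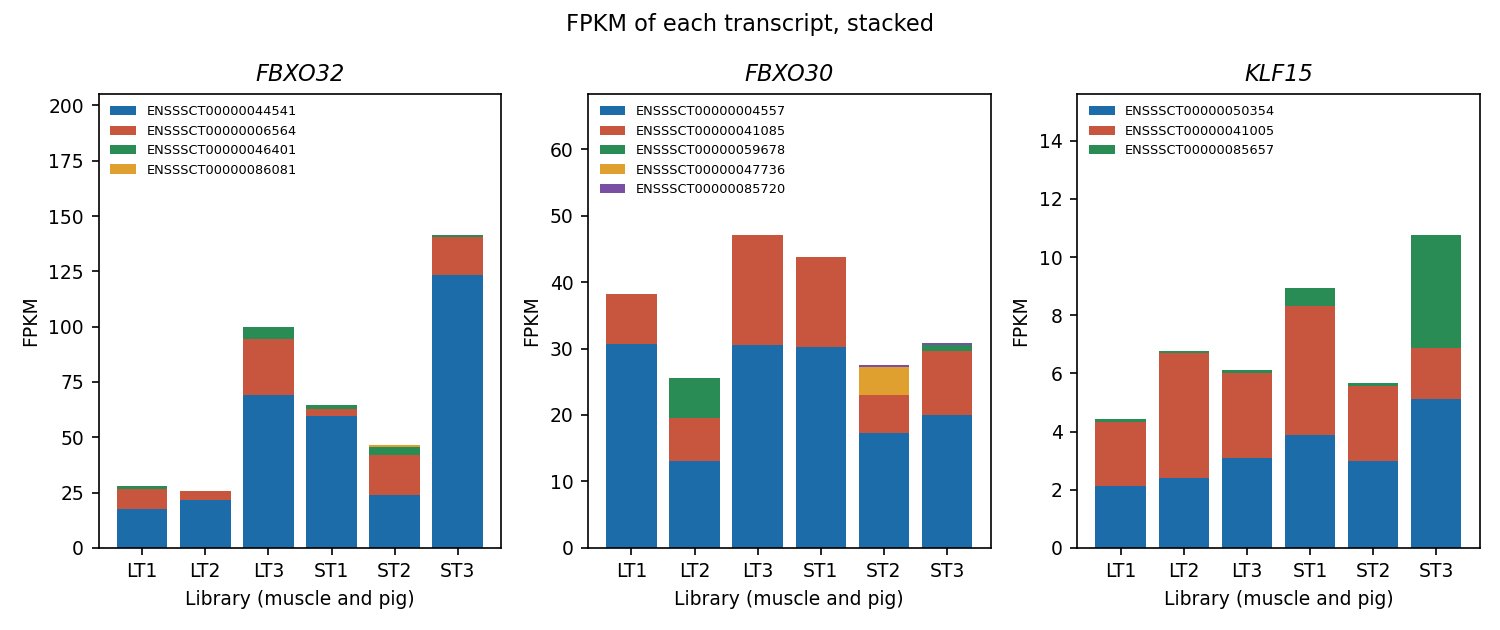
FPKM (vertical axis) of the transcripts of FBXO32, FBXO30 and KLF15, stacked for each of the 6 libraries. The long transcript holds 51.0 to 92.4% of FBXO32, transcripts of the EPM2A range hold most of the FBXO30 gene ID, and ENSSSCT00000085657 of KLF15 stands out in ST of pig 3 alone.

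The pathway around these genes was covered by 10 lists with 216 genes, of which 198 were tested. Of these, 2 were called higher in ST in limma and none lower, against 0.412% and 0.163% of all genes. At an unadjusted limma p under 0.05, 34 were higher and 15 lower, against 13% and 5.75% of all genes. With the pig as a block 7 were called higher and 3 lower, against 4.06% of all genes called in either direction.

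Among 25 other muscle ubiquitin ligases none was called, the median log2 difference was 0.08, and 4 were higher and 4 lower at an unadjusted p under 0.05. WWP1, a ligase of the NEDD4 family, was at 67.2, 63.6 and 62.9 FPKM in LT and at 32.0, 40.6 and 32.6 in ST, without overlap (log2 difference -0.89, limma adjusted p = 0.0661). ASB2, which limits muscle mass, differed by -0.96 (limma adjusted p = 0.0895), SMURF1 by 1.16 (0.0821) and FBXW7 by 0.71 (0.142). Without the ST library of pig 2, when 991 genes were called among all genes, ASB2 was called at -1.13 (limma adjusted p = 0.0297). MDM2, the ligase of p53, was called lower in ST with the block alone, with a log2 difference of -1.22 (limma adjusted p = 0.311, and 0.0437 with the block).

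The SCF core and the other ubiquitin-conjugating enzymes, the partners of CDC34, gave no call among 17 genes tested and a median of -0.15. UBE2D2 was at 62.5, 64.5 and 61.1 FPKM in LT and at 39.9, 46.2 and 43.3 in ST (log2 difference -0.54, limma adjusted p = 0.135), UBE2O differed by -0.57 (0.188), UBE2Z by 0.43 (0.251) and UBE2B, which is raised in wasting muscle, by 0.43 (0.296). CDC34 was the only gene of this arm with a difference beyond 1 on the log2 scale. It was chosen with earlier results of these data known, so this is a description only. Of 15 ubiquitin and shuttle genes none was called or passed an unadjusted p of 0.05, and the median was -0.15. The smallest p in this list belonged to UCHL5, USP28, UCHL1 and RAD23B, with limma adjusted p of 0.298 to 0.383.

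Proteasome subunits form the machine that degrades what these ligases tag. By sign, 26 of 28 subunits were lower in ST, but none was called and none passed an unadjusted limma p of 0.05. Their median was -0.18 (-0.26 after quantile normalization and -0.10 after rescaling to nuclear mRNA), against 0.13 over all genes tested. Their summed FPKM overlapped, at 1435 to 2239 in LT and 1330 to 1603 in ST. The LT library of pig 3 was the highest LT library for each of the 28. Some subunits, such as PSMC1 and PSMD12, were higher in ST in 1 pig. PSMD4, a ubiquitin receptor of the proteasome, was at 64.5, 74.8 and 107 FPKM in LT and at 46.8, 62.1 and 59.7 in ST (log2 difference -0.53, limma adjusted p = 0.283). The muscles did not overlap for 3 of the 28 subunits, all lower in ST, near the 8.08% of all genes of that kind. PSMA4, PSMC3 and PSMD6 differed by -0.43, -0.42 and -0.34, with limma adjusted p of 0.355 to 0.459.

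The autophagy genes downstream of FOXO3 had a median of -0.13, and none of 20 was called. GABARAPL1, a protein of the autophagosome membrane, was at 6.90, 10.9 and 10.05 FPKM in LT and at 17.5, 19.8 and 26.8 in ST, without overlap (log2 difference 1.20, limma adjusted p = 0.0684, and 0.0265 with the block). WIPI1 differed by 1.43 (limma adjusted p = 0.0762, and 0.0188 with the block), and was at 4.76 to 9.08 FPKM in LT and 11.6 to 21.9 in ST. Without the ST library of pig 2, GABARAPL1 and WIPI1 were called at 1.24 and 1.72 (limma adjusted p of 0.0472 and 0.0196). In that fit 991 genes were called among all genes. ULK1, the kinase that starts autophagy, differed by -0.71 (limma adjusted p = 0.211) and LAMP2, of the lysosome membrane, by 0.42 (0.260).

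Both calls without the block fell among 20 other FOXO target genes, whose median was 0.36. LPL, the lipoprotein lipase, was at 62.1, 74.0 and 62.6 FPKM in LT and at 169, 173 and 186 in ST (log2 difference 1.41, limma adjusted p = 0.0259). IRS2, an adaptor of the insulin receptor, was at 3.89, 3.07 and 5.53 FPKM in LT and at 10.7, 13.7 and 11.8 in ST (log2 difference 1.55, limma adjusted p = 0.0427). LPL and IRS2 rose without overlap and in 3 of 3 pigs. Leaving out any library other than ST of pig 2 took the limma adjusted p of LPL to between 0.0863 and 0.118 and that of IRS2 to between 0.0617 and 0.172. SOD2, a mitochondrial antioxidant enzyme, differed by 0.80 (limma adjusted p = 0.0895). MSTN, also in this list and described below, was lower in ST, by -2.34 (limma adjusted p = 0.0849, and 0.0233 with the block). By sign 13 genes of this list were higher and 7 lower in ST, and 4 were higher and 2 lower at an unadjusted limma p under 0.05. Markers of endothelium also had higher sums in ST. Of 6 listed 5 were tested, none was at 0 in all libraries, their summed FPKM was 53.3 to 76.3 in LT and 118 to 172 in ST, and 2 of 5 were called. Of 6 adipocyte markers none was called, none was at 0 in all libraries, and the sum was 68.3 to 198 in LT and 59.5 to 151 in ST. By sign all 6 were lower in ST (5 after rescaling to nuclear mRNA), with a median log2 difference of -0.82. LIPE was at -0.0015, and LIPE and FABP4 were higher in ST in 2 of 3 pigs. Only 1 of the 6, LEP, was without overlap, at low means of 0.228 FPKM in LT and 0.0593 in ST. The part of these cells in the LPL and IRS2 differences was not tested.

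**Figure D4:**
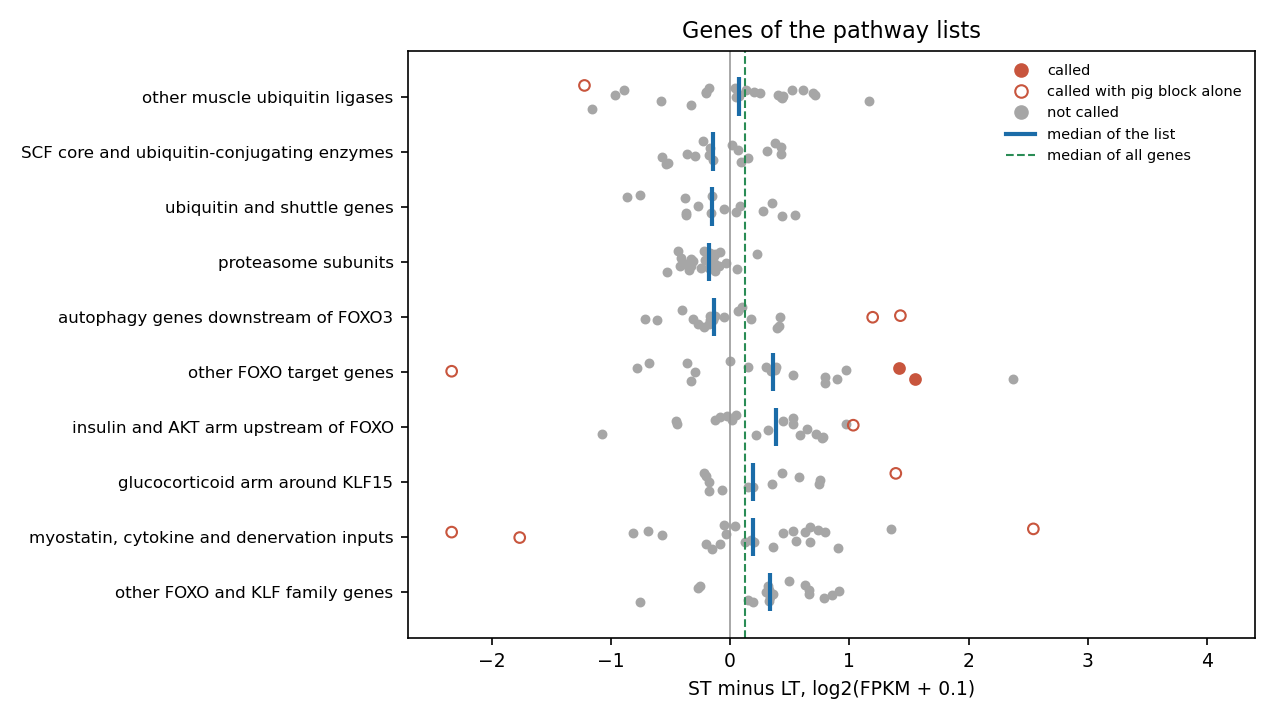
ST minus LT on log2(FPKM + 0.1) for each tested gene of the 10 pathway lists. Filled red points passed the call, open red points passed it with the pig as a block alone, grey points did not pass, blue bars are list medians and the dashed line is the median of all genes tested, 0.13. LPL and IRS2 are the filled points, and the proteasome subunits lie close together just below 0.

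The insulin and AKT arm upstream of FOXO had the most genes higher in ST at an unadjusted p under 0.05 among the 10 lists, 8 of 20, with 2 lower and a median of 0.38, but none was called. YWHAZ, one of the 14-3-3 proteins that hold phosphorylated FOXO in the cytoplasm, was at 36.4, 29.6 and 31.9 FPKM in LT and at 54.1, 59.5 and 52.8 in ST (log2 difference 0.77, limma adjusted p = 0.0758). PDPK1, the kinase that activates AKT, differed by 1.03 (limma adjusted p = 0.142, and 0.0387 with the block) and RPS6KB1, a kinase below mTOR, by -0.44 (0.190). Leaving out the ST library of pig 2, when 991 genes were called among all genes, took PDPK1 to 1.37 (limma adjusted p = 0.0219).

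In the glucocorticoid arm around KLF15 none of 13 genes was called, and the median was 0.19. PER1, a clock gene that glucocorticoids induce, was at 1.98, 2.96 and 6.14 FPKM in LT and at 7.28, 8.94 and 10.6 in ST, without overlap (log2 difference 1.39, limma adjusted p = 0.115, and 0.0315 with the block). ZBTB16 differed by 0.74 (limma adjusted p = 0.147), and NR3C1, the glucocorticoid receptor itself, by 0.35 (0.343). BCKDHB, a subunit of the enzyme that breaks down branched-chain amino acids, differed by 0.58 (limma adjusted p = 0.531), and by -0.012 without the LT library of pig 3.

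Among 26 myostatin, cytokine and denervation inputs the median was 0.19 and none was called. MSTN, the growth inhibitor myostatin, was at 15.3, 18.2 and 10.6 FPKM in LT and at 2.04, 7.36 and 1.38 in ST, without overlap (log2 difference -2.34, limma adjusted p = 0.0849, and 0.0233 with the block). Leaving out the ST library of pig 2, when 991 genes were called among all genes, took MSTN to -3.02 (limma adjusted p = 0.00364). The antagonist of myostatin, FST or follistatin, was also at lower values in ST, 4.36, 2.91 and 3.21 FPKM in LT against 1.89, 0.879 and 0.481 (log2 difference -1.76, limma adjusted p = 0.0895, and 0.0291 with the block). PPARGC1A, a coactivator of slow fibres and mitochondria that restrains FOXO3, was at 4.49, 5.81 and 3.05 FPKM in LT and at 10.5, 68.7 and 23.1 in ST. The ST library of pig 2 had the highest value of PPARGC1A, and the log2 difference was 2.54 (limma adjusted p = 0.0879, and 0.0291 with the block) with this library and 1.83 (limma adjusted p = 0.0415) without it. PRKAA2, a subunit of the energy sensor AMPK, differed by -0.82 (limma adjusted p = 0.0985).

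Other FOXO and KLF family genes were mostly higher in ST by sign, 15 of 18, with no call. Their median was 0.33 (0.17 after quantile normalization), against 0.13 over all genes tested. KLF2, a factor of endothelium among other cells, was at 30.5, 27.7 and 29.2 FPKM in LT and at 46.0, 50.2 and 55.1 in ST, without overlap (log2 difference 0.79, limma adjusted p = 0.0709). KLF12, KLF4 and KLF3 differed by 0.86, 0.66 and 0.62, with limma adjusted p of 0.0901, 0.146 and 0.122.

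Genes whose values ran most like those of FBXO32 and TRIM63 were sought over the 6 libraries among 11096 genes with a mean FPKM of at least 1. As a description, Pearson r of the log2 values was 0.995 for FBXO32 with DHX35, a putative RNA helicase, and with ENSSSCG00000011317, which has no symbol, and 0.992 with XRN1, an RNA exonuclease, PSMB2, a proteasome subunit, and NRBF2, an autophagy protein. For TRIM63 it was 0.977 with GPN1, 0.976 with TBC1D24, 0.975 with TRAFD1 and ATOSB, and 0.973 with ENSSSCG00000038187. PSMB2 was at 6.35, 6.11 and 9.29 FPKM in LT and at 8.27, 7.27 and 9.64 in ST, and TRAFD1 was at 7.11, 6.45 and 10.2 in LT and at 8.42, 15.4 and 10.2 in ST. The libraries share pigs, and the highest of many correlations over 6 points are high by selection. The gene sets nearest to FBXO32 and to TRIM63 had no gene in common among the 5 named for each.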

How the data were processed

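LT and ST muscles of 3 Min pigs gave 6 libraries. The authors used SOAPnuke to filter reads, HISAT2 to map them to the pig genome Sscrofa11.1 and StringTie, also named in the submitters' notes, to assemble transcripts. They deposited FPKM per transcript, 1 file per library. Here mRNA transcripts were summed per gene ID, and symbols were taken from a table that named 14657 of 25973 genes. Genes that exceeded 0.1 FPKM in 1 or more libraries entered a comparison on log2(FPKM + 0.1) with limma 3.58.1 in R 4.3.3, with a variance trend and Benjamini-Hochberg adjustment over all genes. Genes were called at an adjusted p below 0.05 when the log2 difference also exceeded 1 in size. The fit was tested on simulated data. Single genes were also compared by 2-sided exact permutation tests.

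Per the methods both muscles came from the same pigs. That same-numbered samples share a pig was inferred from the titles. Their residuals after centering within each muscle correlated at 0.29, 0.26 and 0.29. Such centering ties the mean for different pigs, -0.14, to these values, so it is no separate check of the pairing. A fit with the pig as a block was therefore run beside the main fit. The p-values rest on 3 pigs. Depth was estimated from the FPKM of the lowest genes, which kept whole multiples within 0.02 for 28.3 to 33.6% of values, so no count test was the main result. Other values came from Python 3.11.15 with pandas 2.3.3, numpy 2.4.6 and scipy 1.17.1, and plots from matplotlib 3.10.9. RefSeq loci of assembly Sscrofa11.1 were used for neighbours.

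The 10 genes and all lists were chosen with earlier results of these data known. Named beside them were the 4 genes of each list with the smallest unadjusted p and the 5 genes closest to FBXO32 and to TRIM63 by Pearson r. Of the list genes so named, 1 is left out. MDM2, PSMB2 and ATP2A1 were named after their values were seen. Alternatives were other pseudocounts, filters and scalings, the block, no variance trend, leaving out each library, other transcript sets and, added after seeing the data, FBXO30 inside its RefSeq range and limma-voom on estimated fragments. The preadipocyte and qPCR experiments were not analysed here.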

Additional observations from a re-analysis of the deposited data

Results flagged for a closer look

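Transcripts assembled on the strand opposite to 6 of the 10 genes were not counted among the transcripts of these genes described above. The comparison of all transcripts took in mRNA and lncRNA transcripts together and did not leave out these 9. Their differences between the muscles are not given here. Of the 9, 7 had more than 3 estimated fragments in every library. Novel_005758, opposite FBXO32, had at least 280 estimated fragments in each library, ran at 1.91 to 3.05% of the FPKM of FBXO32 and ordered the 6 libraries as FBXO32 did. LNC_008870, opposite TRIM63, had at least 259 fragments and 9 exons, ran at 4.48 to 5.88% of TRIM63 and followed its order too. LNC_001525, opposite FOXO1, had at least 69.3 fragments and ran at 9.77 to 13.0% of FOXO1. Novel_009596, opposite FOXO4, had at least 83.2 fragments and ran at 5.29 to 6.61% of FOXO4. Opposite FOXO3 the lowest values were 29.2 fragments for Novel_000441 and 11.5 for LNC_000700. Novel_000397, opposite FBXO30, had at least 13.7 fragments. The source of these transcripts was not tested.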

How the results depend on the processing

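The 113 called genes became 30 with no filter on FPKM, 61 after quantile normalization (32 higher and 29 lower), 185 after rescaling to nuclear mRNA, 29 with no variance trend and 22 with limma-voom on estimated fragments, an alternative added after seeing the data. With the pig as a block there were 799. Leaving out 1 library gave 12 to 991, with 991 without ST of pig 2 and 12 without LT of pig 3. The 76 called transcripts became 37 with a pseudocount of 1, 30 with no filter, 31 with a mean FPKM of at least 1, 2 with the pig as a block, and 46 to 256 on leaving out 1 library, with 46 without ST of pig 1. Of the 10 genes, 1 (CDC34) was called with the block, and 0 to 1 on leaving out 1 library, the 1 again CDC34 without ST of pig 2. Among genes with a mean FPKM of at least 1, the median moved from 0.15 to -0.01 with quantile normalization and to 0.23 with rescaling to nuclear mRNA.

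Some directions near 0 turned. FOXO1 was at 0.036 after rescaling to nuclear mRNA and at -0.37 to 0.15 on leaving out 1 library. FOXO3 was at -0.091 after quantile normalization and at -0.22 to 0.29 on leaving out 1 library. FBXO30 ran from -0.35 to 0.094 and BCKDHB from -0.012 to 0.94 on leaving out 1 library. Among 795 values of 49 single genes under alternatives, 754 kept direction and side of the threshold, 16 (LPL and IRS2) lost the call, 15 in 9 genes gained it and 10 in 4 genes turned. None of the 10 pathway list medians changed sign with quantile normalization or rescaling to nuclear mRNA. The cause was not tested. With a library left out, its muscle has 2 samples. Depth limits single transcripts most, and 3 pigs limit every comparison.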
